A study of Homo sapiens with 6 samples.

Results

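The 10 genes described here are enzymes of serine synthesis and of one-carbon metabolism, measured in BT549, a mesenchymal breast cancer cell line. They were chosen by symbol from the 23346 genes of the count table, by a rule that uses no measured value. All 10 (PHGDH, PSAT1, PSPH, SHMT1, SHMT2, MTHFD1, MTHFD1L, MTHFD2, ALDH1L2 and TYMS) were in the table and passed the filter on low counts. The study compared 3 libraries of wild-type BT549 cells transfected with BNC2 siRNA with 3 libraries of the same cells transfected with negative control (NC) siRNA. Each transfection used 20 nM siRNA, and poly(A) RNA was prepared 6 d later. The BNC2 siRNA was an equal mix of 3 duplexes from one supplier, so the knockdown of basonuclin-2, a zinc finger protein of mesenchymal cells, is that of a pool in 1 cell line.

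Cells make serine from the glycolytic intermediate 3-phosphoglycerate. PHGDH oxidises it, PSAT1 transfers an amino group to the product, and PSPH removes the phosphate. Serine hydroxymethyltransferase, SHMT1 in the cytosol and SHMT2 in mitochondria, then splits serine into glycine and a carbon unit that is carried on tetrahydrofolate. In mitochondria MTHFD2 and MTHFD1L convert this unit to formate, which MTHFD1 takes up again in the cytosol. ALDH1L2 oxidises the unit, while it is still carried on tetrahydrofolate, to carbon dioxide with the production of NADPH. The units are spent on purine rings, on the methyl group of methionine and on thymidylate, which TYMS makes. Proliferating tumour cells are known to depend on this pathway, and the transcription factor ATF4 is known to induce many of its enzymes.

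The duplexes are shown first, because they define the groups. Each guide strand is written 5′ to 3′ with its seed, bases 2 to 8, in capitals, and ends in a DNA overhang.
BNC2 siRNA (1): uUUACACUgaucacaagucct
BNC2 siRNA (2): uUGUCAUAgaaugucuucctt
BNC2 siRNA (3): uUUCGGCUucguacagaggtt
NC siRNA: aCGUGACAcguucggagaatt
The 19 paired bases of the 3 BNC2 duplexes matched coding sequence of BNC2 on the minus strand of chromosome 9 of GRCh37, the assembly of hg19, at chr9:16583000-16583018 in exon 4, chr9:16436834-16436852 in exon 6 and chr9:16419045-16419063 in exon 7. The NC siRNA did not match the BNC2 transcript. In the 3′ UTRs of the 10 enzymes, a site complementary to the seed of BNC2 siRNA (2), TATGACA, occurred once, in ALDH1L2, against 10.2% of the 3′ UTRs of 10490 genes tested, which differ in length. The seed sites of the other two BNC2 duplexes (AGTGTAA and AGCCGAA) and of the NC siRNA (TGTCACG) were not found in these 10 UTRs. They occurred in 13.7%, 2.21% and 3.16% of the UTRs of the genes tested.

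The libraries held 16093978 to 18246254 gene counts. BNC2 itself had 65.6, 51.5 and 58.6 CPM (counts scaled to the size of the library) after NC siRNA against 35.5, 36.6 and 41.6 CPM after knockdown, which left 64.6% of the control level (adjusted p = 8.2e-06, quasi-likelihood test of edgeR). The mesenchymal markers VIM, FN1, ZEB1 and CDH2 had at least 108 CPM in every library, CDH1, EPCAM and ESRP1 had at most 0.056 CPM, and the leukocyte and endothelial markers PTPRC and PECAM1 at most 0.407 CPM. Of 12186 genes tested, 72.9% passed the threshold for a call (0.05, after Benjamini-Hochberg adjustment), 36.6% up and 36.2% down, and in 74.9% the 2 groups did not overlap. In a bulk sample, a change in the number of cells of a kind cannot be told apart from a change in RNA per cell.

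BNC2 knockdown moved the enzymes both ways. ALDH1L2 rose more than 3-fold, SHMT1, PSPH, MTHFD1L, MTHFD2 and MTHFD1 rose by less, PHGDH and PSAT1 fell, and SHMT2 and TYMS were not called. In numbers, 6 of the 10 were up-regulated and 2 were down-regulated, that is 80.0% called beside the 72.9% of all genes, so the count of calls lies near the background. The groups did not overlap in 8 of the 10, beside 74.9% of all genes. The median log2 fold change of the 10 was 0.36, against 0.0014 over all genes tested. The 10 transcripts together made up 823 to 826 CPM in the NC siRNA libraries and 944 to 974 CPM in the BNC2 siRNA libraries.

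**Figure D1:**
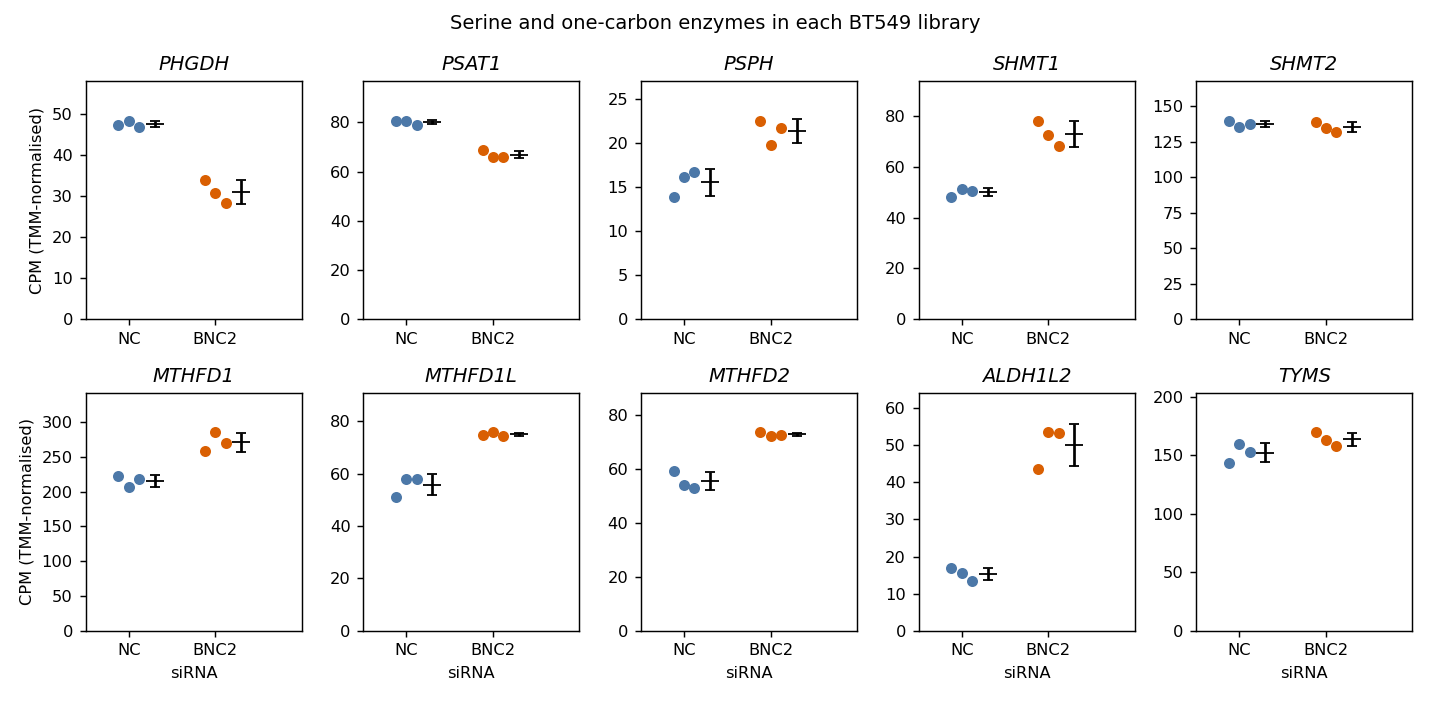
Level of each of the 10 enzymes in TMM-normalised CPM (y axes from 0) in the 3 NC siRNA libraries (blue) and the 3 BNC2 siRNA libraries (orange), with mean and SD in black. The groups are apart in 8 panels and overlap in those of SHMT2 and TYMS, and the widest gap relative to the level of the gene is that of ALDH1L2, at 13.5 to 16.8 CPM against 43.6 to 53.4 CPM.

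The first enzyme of serine synthesis fell. PHGDH, on the plus strand of chromosome 1 of GRCh37 from 120191034 to 120286841, had 47.4, 48.4 and 46.96 CPM with NC siRNA and 34.1, 30.7 and 28.3 CPM with BNC2 siRNA. Each BNC2 siRNA library was below each NC siRNA library, and the NC siRNA libraries lay within 2 CPM of each other. PHGDH kept 65.2% of its control level (log2 fold change -0.62 with a standard error of 0.08, adjusted p = 2.28e-06).

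PSAT1, the aminotransferase of the next step, lies on the plus strand of chromosome 9 from 80912041 to 80945009. It had 80.6, 80.7 and 79.1 CPM with NC siRNA and 68.7, 66.0 and 66.2 CPM with BNC2 siRNA. The groups were again apart, and PSAT1 fell to 83.6% of its control level (log2 fold change -0.26 with a standard error of 0.06, adjusted p = 0.000923).

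PSPH, the phosphatase that completes serine synthesis, moved in the other direction. It lies on the minus strand of chromosome 7 from 56078744 to 56119297 and was the weaker of the 3 by counts, with 13.8, 16.1 and 16.7 CPM with NC siRNA and 22.5, 19.8 and 21.6 CPM with BNC2 siRNA. Every BNC2 siRNA library was above every NC siRNA library. The rise was 1.37-fold (log2 fold change 0.46 with a standard error of 0.10, adjusted p = 0.000548).

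Within each library, the ratio of read counts between 2 enzymes does not depend on how libraries are scaled. The counts of PSPH were 0.291, 0.333 and 0.355 times those of PHGDH in the NC siRNA libraries and 0.660, 0.644 and 0.766 times in the BNC2 siRNA libraries, a 2.12-fold higher ratio after knockdown. PSAT1 over PHGDH went from 1.70, 1.67 and 1.69 to 2.02, 2.15 and 2.34, so it was 1.29-fold higher. Neither ratio overlapped between the groups. In all, 6 ratios were computed, and with 3 libraries against 3 the exact two-sided permutation test gave p = 0.1 for each of these 2, the smallest p it can give, or 0.15 with Benjamini-Hochberg adjustment over the 6.

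**Figure D2:**
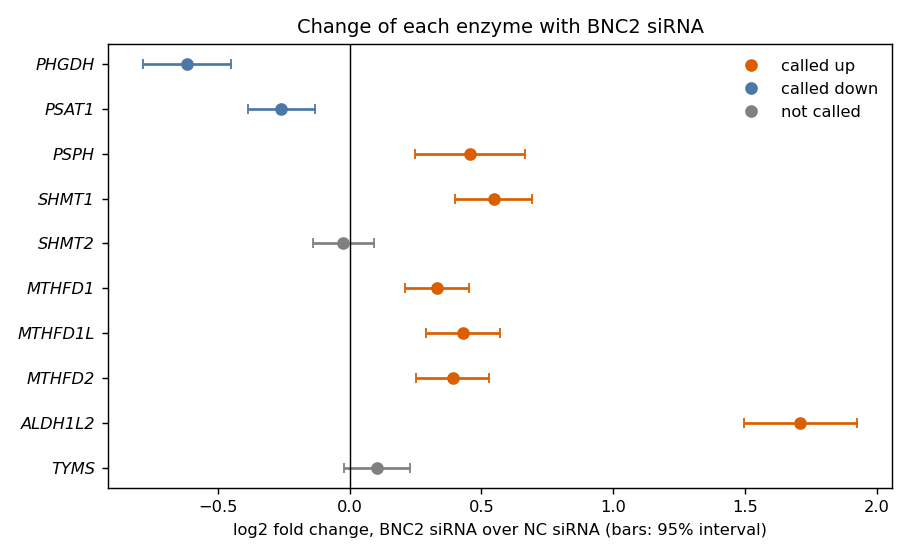
Log2 fold change of each enzyme with BNC2 siRNA over NC siRNA (x axis), with 95% intervals as bars, from serine synthesis at the top to thymidylate synthesis at the bottom. PHGDH (-0.62) and PSAT1 (-0.26) lie to the left of 0, ALDH1L2 (1.71) far to the right, and the intervals of SHMT2 and TYMS include 0.

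Of the 2 serine hydroxymethyltransferases, SHMT1 was called up and SHMT2 was not called. SHMT1, the cytosolic enzyme, on the minus strand of chromosome 17 from 18231174 to 18266877, had 48.2, 51.3 and 50.4 CPM with NC siRNA and 78.2, 72.5 and 68.1 CPM with BNC2 siRNA. No library of one group reached into the other, and the rise was 1.46-fold (log2 fold change 0.55 with a standard error of 0.07, adjusted p = 2.06e-06).

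SHMT2, the mitochondrial enzyme, on the plus strand of chromosome 12 from 57623356 to 57628718, had 139.8, 135 and 138 CPM with NC siRNA and 139, 135 and 132 CPM with BNC2 siRNA. The groups overlapped, and SHMT2 was not called (log2 fold change -0.02 with a standard error of 0.055, adjusted p = 0.704). The 95% interval of its log2 fold change ran from -0.14 to 0.09, which bounds a change between 0.907-fold and 1.07-fold. Counts of SHMT2 were 2.90, 2.64 and 2.73 times those of SHMT1 in the NC siRNA libraries and 1.78, 1.86 and 1.94 times in the BNC2 siRNA libraries. This ratio was 1.48-fold lower after knockdown without overlap (exact two-sided permutation test p = 0.1, the smallest possible, 0.15 adjusted over 6 ratios).

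The largest change among the 10 was in the mitochondrial folate enzyme ALDH1L2, a formyltetrahydrofolate dehydrogenase. Its gene lies on the minus strand of chromosome 12 from 105413562 to 105501421. It had 16.8, 15.6 and 13.5 CPM with NC siRNA, from 299, 278 and 224 counts, and 43.6, 53.4 and 53.3 CPM with BNC2 siRNA, from 750, 947 and 837 counts. The lowest BNC2 siRNA library was thus far above the highest NC siRNA library. ALDH1L2 rose 3.27-fold, from a mean of 15.3 ± 1.70 to one of 50.1 ± 5.62 CPM (SD, n = 3). Its log2 fold change was 1.71 with a standard error of 0.10 (adjusted p = 2.11e-10). The 95% interval of the fold ran from 2.82 to 3.79. Of all genes tested, 98.2% had a log2 fold change no higher than that of ALDH1L2.

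MTHFD1L and MTHFD2, the mitochondrial enzymes that release and form formyl-folate on the way to formate, both rose. MTHFD1L, on the plus strand of chromosome 6 from 151186815 to 151423023, had 51.1, 58.0 and 58.1 CPM with NC siRNA and 74.9, 75.8 and 74.6 CPM with BNC2 siRNA. MTHFD2, on the plus strand of chromosome 2 from 74413299 to 74444692, had 59.4, 54.1 and 53.0 CPM with NC siRNA and 73.5, 72.3 and 72.6 CPM with BNC2 siRNA. In both genes the groups were apart, and the BNC2 siRNA libraries were closer together than the NC siRNA libraries. MTHFD1L rose 1.35-fold (log2 fold change 0.43 with a standard error of 0.07, adjusted p = 2.24e-05) and MTHFD2 rose 1.31-fold (log2 fold change 0.39 with a standard error of 0.065, adjusted p = 4.57e-05).

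MTHFD1, the cytosolic enzyme with 3 activities on tetrahydrofolate, had the highest CPM of the 10. It lies on the plus strand of chromosome 14 from 64854749 to 64930175. The NC siRNA libraries had 222, 206 and 218 CPM and the BNC2 siRNA libraries 258, 285 and 269.7 CPM, without overlap. The rise was 1.26-fold (log2 fold change 0.33 with a standard error of 0.06, adjusted p = 7.17e-05).

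The proportions of mitochondrial to cytosolic enzymes of this step overlapped between the groups. Counts of MTHFD1L were 0.230, 0.281 and 0.266 times those of MTHFD1 in the NC siRNA libraries and 0.290, 0.266 and 0.277 times in the BNC2 siRNA libraries, a mean log2 difference of 0.10 (exact permutation test, two-sided, p = 0.5). This difference was 0.02 without NC siRNA replicate 1 and 0.16 without NC siRNA replicate 2. MTHFD2 over MTHFD1 also overlapped, with 0.267, 0.262 and 0.243 against 0.285, 0.253 and 0.269 (exact permutation test, two-sided, p = 0.4). Whether these ratios differ from that of SHMT2 over SHMT1 in their response was not tested.

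A related gene moved the other way. MTHFD2L, which encodes a second mitochondrial enzyme with the activities of MTHFD2, had 5.18, 5.49 and 4.45 CPM with NC siRNA and 3.84, 3.89 and 3.31 CPM with BNC2 siRNA (log2 fold change -0.45 with a standard error of 0.16, adjusted p = 0.0197). Its call was lost without NC siRNA replicate 2 (log2 fold change -0.41) and without BNC2 siRNA replicate 3 (-0.39). Counts of MTHFD2 were 11.5, 9.86 and 11.9 times those of MTHFD2L with NC siRNA and 19.2, 18.6 and 21.9 times with BNC2 siRNA, a 1.80-fold higher ratio without overlap (exact two-sided permutation test p = 0.1, the smallest possible, 0.15 adjusted over 6 ratios).

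**Figure D3:**
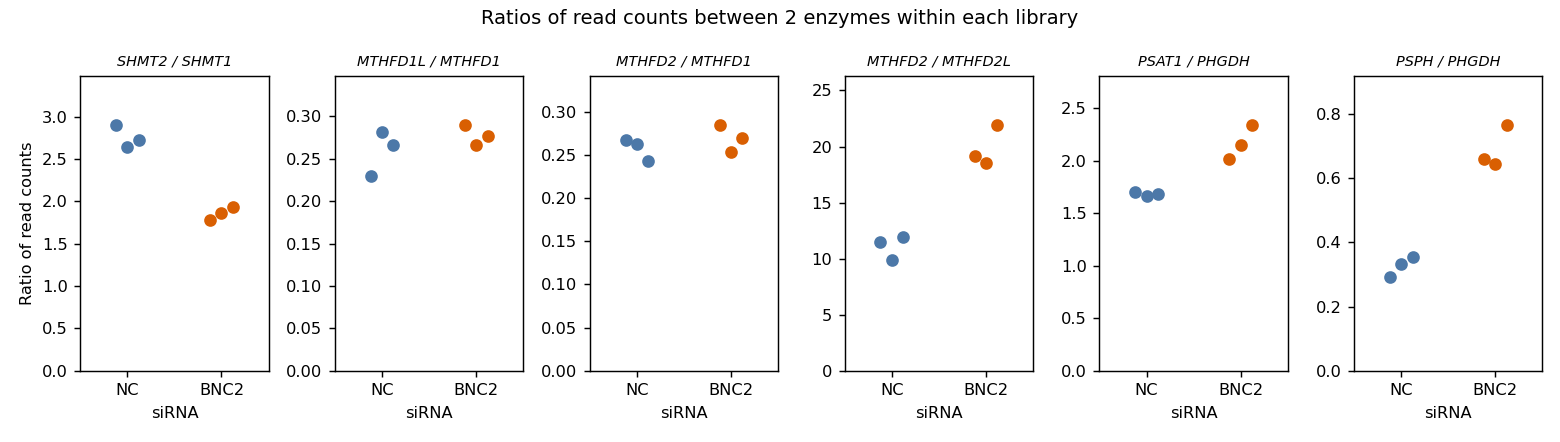
Ratio of read counts between 2 enzymes within each library (y axes from 0) for the 3 NC siRNA libraries (blue) and the 3 BNC2 siRNA libraries (orange). The groups are apart in 4 panels (SHMT2 over SHMT1, MTHFD2 over MTHFD2L, PSAT1 over PHGDH and PSPH over PHGDH) and overlap in the 2 with MTHFD1.

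TYMS, which makes thymidylate for DNA synthesis, was not called. Its gene lies on the plus strand of chromosome 18 from 657653 to 673578. It had 144, 159.9 and 153 CPM with NC siRNA and 169.5, 163 and 158 CPM with BNC2 siRNA, so 1 BNC2 siRNA library fell within the NC siRNA range. Its log2 fold change of 0.10 had a standard error of 0.06 (adjusted p = 0.121) and a 95% interval from -0.02 to 0.23, which bounds a change between 0.986-fold and 1.17-fold. ENOSF1, which overlaps the end of TYMS on the other strand, rose from 9.42 ± 1.54 to 14.2 ± 0.693 CPM (SD, n = 3, log2 fold change 0.59, adjusted p = 0.000412). Reads were counted by strand, and 0.641% to 1.21% of the counts on TYMS exons were on the strand opposite to the gene.

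The S-phase genes, among which TYMS is usually placed, also went both ways. Of 25 such genes, 10 rose, 9 fell and 6 were not called, that is 76.0% called beside the 72.9% of all genes, and the median log2 fold change was -0.02. POLE and POLD1, catalytic subunits of replicative DNA polymerases, rose by log2 fold changes of 0.82 and 0.73 (adjusted p = 1.13e-08 and 1.83e-08). CCNE1, a cyclin of the G1/S transition, and CLSPN, an adaptor of the replication checkpoint, were named after their values were seen, as the largest falls of the list. They fell by log2 fold changes of -0.85 and -0.75 (adjusted p = 6.16e-08 and 1.07e-07), without overlap of the groups. PCNA, the clamp of the replicative polymerases, had a log2 fold change of -0.15 (adjusted p = 0.0417) with overlapping groups. Its call held in 5 of 14 alternatives. Leaving out NC siRNA replicate 2 or 3 (log2 fold change -0.12 or -0.14) or BNC2 siRNA replicate 1, 2 or 3 (-0.16, -0.13 or -0.15) ended it. The summed level of the list was 2862 to 3036 CPM with NC siRNA and 2877 to 2881 CPM with BNC2 siRNA.

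Between genes, levels can be compared only per length. Per kilobase of annotated exon, TYMS was the highest of the 10 in the NC siRNA libraries, at 62.8 ± 3.34 CPM per kilobase (SD, n = 3). PSAT1 (36.3 ± 0.408), SHMT2 (30.0 ± 0.488), MTHFD1 (12.4 ± 0.481), MTHFD1L (11.4 ± 0.816) and SHMT1 (7.12 ± 0.232) followed. PSPH (5.62 ± 0.553), PHGDH (5.18 ± 0.0831) and MTHFD2 (4.85 ± 0.296) were neighbours whose NC siRNA libraries overlapped, and ALDH1L2 was lowest at 1.61 ± 0.179. With BNC2 siRNA, ALDH1L2 reached 5.28 ± 0.592 CPM per kilobase and PHGDH, at 3.38 ± 0.317, was the lowest of the 10 by this length.

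The order rests on the length used, since the annotated exons of PHGDH and MTHFD1 add up to 9187 and 17357 bases and their main transcripts to 1866 and 3154 bases. Per kilobase of main transcript, MTHFD1 (68.4 ± 2.65 CPM per kilobase) and PHGDH (25.5 ± 0.409) ranked 2 and 5 in the NC siRNA libraries and PSAT1 (36.3 ± 0.408) ranked 4. TYMS stayed first and ALDH1L2 last in these libraries by either length and by coding length. In the BNC2 siRNA libraries, ALDH1L2 and not PHGDH was lowest by main transcript (6.75 ± 0.757 against 16.6 ± 1.56 CPM per kilobase), while by coding length the libraries of these 2 genes overlapped (18.1 ± 2.03 for ALDH1L2 and 19.4 ± 1.82 for PHGDH).

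Other genes of the pathway were counted from a list of 55 genes for folate uptake and conversion, glycine cleavage, the methionine cycle, transsulphuration, serine and glycine breakdown, purine ring assembly and thymidylate supply. Of these, 44 passed the filter, of which 22 rose, 9 fell and 13 were not called. This is 70.5% called, near the 72.9% of all genes. Their median log2 fold change was 0.16, against 0.0014 over all genes tested. The counts moved with the processing: 18 rose and 11 fell with total counts as the scaling. Without NC siRNA replicate 2, 43 genes were tested, of which 20 rose and 6 fell.

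Both genes of transsulphuration, which leads serine and homocysteine towards cysteine, rose. CBS, which joins serine to homocysteine, went from 25.3, 25.7 and 25.4 CPM with NC siRNA to 72.8, 64.9 and 63.9 CPM with BNC2 siRNA (2.64-fold, log2 fold change 1.40 with a standard error of 0.07, adjusted p = 5.48e-11). CTH, which releases cysteine, was weakly expressed and went from 1.63, 1.23 and 1.44 CPM to 4.19, 3.10 and 4.46 CPM (log2 fold change 1.44 with a standard error of 0.22, adjusted p = 2.1e-05). In neither gene did the groups overlap, and of all genes tested 36.6% were called up and 74.9% did not overlap.

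In the methionine cycle 4 of 9 genes tested rose and 3 fell, that is 77.8% called beside 72.9% of all genes. The falls include GNMT, a weakly expressed gene that needed its NC siRNA libraries to pass the low-count filter. MTR, the methionine synthase that takes a methyl group from folate, rose from 73.7 ± 5.19 to 133 ± 6.70 CPM (SD, n = 3, log2 fold change 0.85, adjusted p = 6.01e-09). MAT2A, which makes S-adenosylmethionine, fell from 275 ± 9.07 to 216 ± 6.34 CPM (log2 fold change -0.35, adjusted p = 2.28e-05).

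Of the 6 enzymes of purine ring assembly, a pathway that spends formyl-folate, 5 rose and none fell, that is 83.3% called beside 72.9% of all genes, of which 36.6% were called up. PFAS rose most, from 113 ± 7.17 to 194 ± 4.16 CPM (SD, n = 3, log2 fold change 0.78, adjusted p = 5.31e-09), and PPAT was the one not called. SLC19A1, the reduced folate carrier of the plasma membrane, rose from 26.4, 26.7 and 26.5 CPM to 47.1, 40.8 and 42.1 CPM (log2 fold change 0.71 with a standard error of 0.08, adjusted p = 4.24e-07). Of GLDC, GCSH and DLD of the glycine cleavage system, 1 of 3 rose and none fell (33.3% called), while AMT, the aminomethyltransferase of the same system, is counted below with folate conversion, where it was called up. Of the genes of serine and glycine breakdown and transport, 2 of 7 rose and 1 fell (42.9% called). Of those of folate uptake and storage, 3 of 5 rose and none fell (60.0% called), of those of folate conversion, 4 of 8 rose and 3 fell (87.5% called), and of those of thymidylate supply, 1 of 4 rose and 2 fell, beside 72.9% of all genes called. The falls counted under folate conversion include ALDH1L1, which passed the low-count filter through its NC siRNA libraries alone. Among the rises, the groups overlapped in SLC46A1 (folate uptake, log2 fold change 0.38, adjusted p = 0.0401) and DHFRL1 (folate conversion, 0.29, adjusted p = 0.0324). SLC46A1 had 74 to 122 counts with NC siRNA and 118 to 126 with BNC2 siRNA. On the opposite strand its exons had 347 to 410 counts with NC siRNA and 355 to 406 with BNC2 siRNA. GLDC, the decarboxylase of glycine cleavage, and GCAT, a mitochondrial enzyme that acts on glycine, rose by log2 fold changes of 0.37 and 0.99 (adjusted p = 0.00035 and 1.97e-06).

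The largest fall among the genes of this list with a mean of at least 5 CPM was that of SRR, the serine racemase, from 34.6, 37.6 and 37.0 CPM to 15.6, 14.0 and 13.8 CPM (log2 fold change -1.33 with a standard error of 0.09, adjusted p = 6.8e-10). On its exons, 1685 to 1722 counts of the NC siRNA libraries and 2165 to 2483 of the BNC2 siRNA libraries lay on the opposite strand, and with counting that disregards strand its log2 fold change was -0.64. Below that level, and named after their values were seen, ALDH1L1 and GNMT were lower as well. ALDH1L1, the cytosolic counterpart of ALDH1L2, had 1.97, 1.40 and 1.32 CPM with NC siRNA and 0.523, 0.451 and 0.700 CPM with BNC2 siRNA (log2 fold change -1.49). It passed the low-count filter through its NC siRNA libraries alone and was tested in 11 of the 14 alternatives. GNMT, a methyltransferase that acts on glycine, had 2.87, 2.46 and 2.53 CPM with NC siRNA and 0.872, 0.903 and 1.34 CPM with BNC2 siRNA (log2 fold change -1.34). GNMT needed its NC siRNA libraries to pass the low-count filter. DCTPP1, a nucleotide pyrophosphatase, and MTFMT, which formylates the mitochondrial initiator tRNA, fell by log2 fold changes of -0.55 and -0.54 (adjusted p = 8.93e-06 and 0.000224). TK1, the salvage enzyme for thymidine, was at the threshold (log2 fold change -0.17, adjusted p = 0.0493) with overlapping groups, and its call held in 5 of 14 alternatives. It was lost without NC siRNA replicate 2 or 3 (log2 fold change -0.14 or -0.19) and without BNC2 siRNA replicate 2 or 3 (-0.12 or -0.17).

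**Figure D4:**
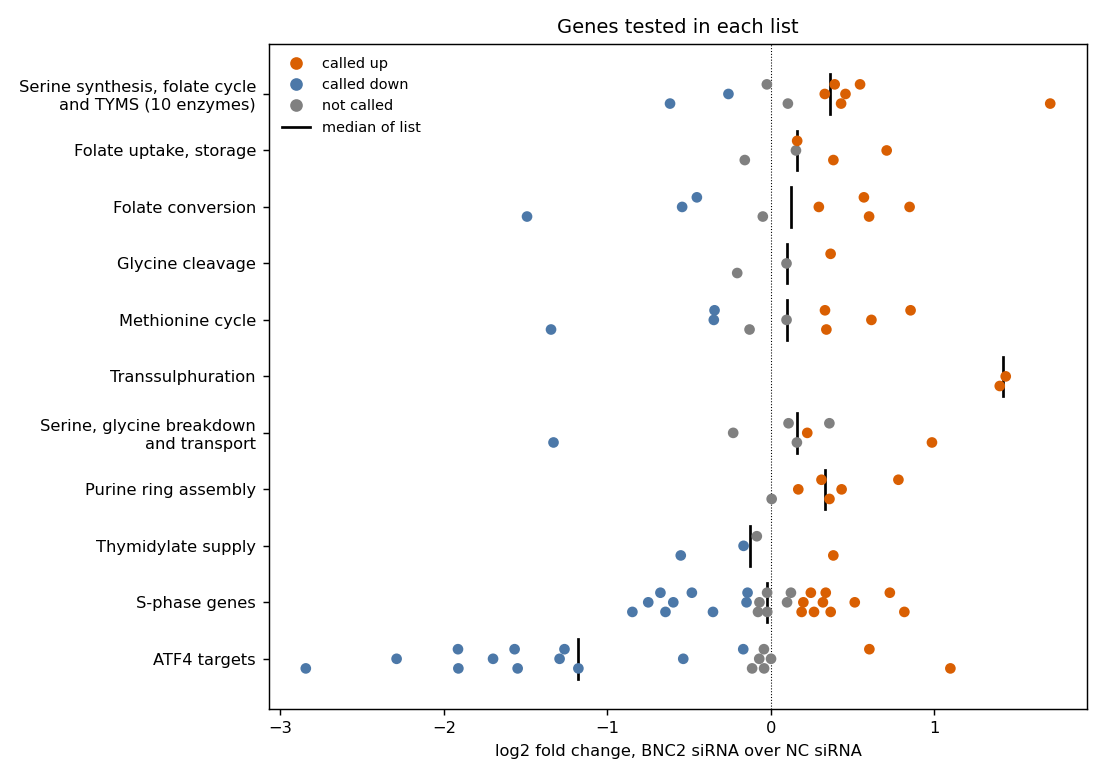
Log2 fold change (x axis, BNC2 siRNA over NC siRNA) of each gene tested in the 10 enzymes, in the lists of other pathway genes and in the lists of S-phase genes and ATF4 targets, where orange was called up, blue called down and grey not called, and the black bar is the median. The median is 0.36 for the 10 enzymes and -1.18 for the list of ATF4 targets. That list includes ATF4 itself and holds 12 genes called down and 2 called up.

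ATF4 targets outside this pathway are set beside the enzymes, because PHGDH, PSAT1, PSPH, SHMT2, MTHFD2, MTHFD1L and ALDH1L2 are known ATF4 targets as well. Of a list of 19 genes (ATF4 and 18 targets or partners), 12 fell, 2 rose and 5 were not called, and their median log2 fold change was -1.18. This is 73.7% called, near the 72.9% of all genes, and 12 of 19 down beside 36.2% of all genes. ASNS, the asparagine synthetase, fell from 13.1, 15.0 and 16.3 CPM to 5.47, 5.02 and 4.46 CPM (log2 fold change -1.57 with a standard error of 0.13, adjusted p = 1.49e-08). CEBPB, a transcription factor of the bZIP family like ATF4, fell (log2 fold change -2.29, adjusted p = 2.36e-14). JDP2, another factor of this family, had 3.21, 5.04 and 4.64 CPM with NC siRNA and 0.349, 1.02 and 0.382 CPM with BNC2 siRNA. It passed the low-count filter through its NC siRNA libraries and was tested in 11 of the 14 alternatives, and its log2 fold change was -2.84 with all libraries and -3.53 without BNC2 siRNA replicate 2. ATF4 itself had a log2 fold change of -0.17 (adjusted p = 0.0209), a call lost in 4 of 14 alternatives, among them without NC siRNA replicate 2 (-0.16) and without BNC2 siRNA replicate 3 (-0.12). Of the 7 enzymes named, 2 fell, 4 rose and SHMT2 was not called. The part of ATF4 in these values was not tested, and its protein was not measured here.

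Promoter sequence was available for 7 of the 10 genes, from 250 bases before to 50 after the start (RefSeq, GRCh38.p14), but not for PSPH, SHMT2 and ALDH1L2. On both strands 4 motifs were searched, and the sites that matched are shown because they are known elements of regulators of this pathway. The C/EBP-ATF response element, TGATGNAAN, matched in MTHFD1L alone, within chr6:150866349-150866373 on the plus strand. The E2F motif TTTCCCGC matched in TYMS alone, read on the minus strand within chr18:657606-657629. The E-box CACGTG matched in MTHFD1, within chr14:64388330-64388351, and in MTHFD1L, within chr6:150866324-150866345. Each interval is that of the line printed, with 8 bases on either side of the motif. Capitals mark the motif, and each line reads along the gene.
MTHFD1L, C/EBP-ATF element: gccggctcTGATGCAATcgcgccgg
MTHFD1L, E-box: cccggctcCACGTGcgcagccg
MTHFD1, E-box: tccctaagCACGTGggttgggt
TYMS, E2F: ggacggccGCGGGAAAaggcgcgc
Of the promoters of 8772 genes tested, 1.55% held TGATGNAAN, 10.2% CACGTG and 2.74% TTTCCCGC. The second E2F motif, TTTGGCGC, was in none of the 7 and in 1.15% of the promoters of genes tested. Of the 3 genes with a match, MTHFD1L and MTHFD1 rose and TYMS was not called. The windows of PHGDH and PSAT1, which fell, and of SHMT1 and MTHFD2, which rose, held none of the 4.

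Reads that map to more than 1 place were left out of the counts, and of the 10 transcripts only ALDH1L2 held a stretch of at least 75 bases with at least 97% identity elsewhere in GRCh37, of 99 bases or 1.33% of its length. Counts on the opposite strand were at most 6.08% of those on a gene's exons, a share reached by ALDH1L2 in an NC siRNA library, where they came to 18 at most in any library.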

How the data were processed

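The rule for the 10 genes goes by symbol and uses no measured value. Even so, the 10 genes and all lists were chosen with earlier results of these data known, so the choice was not blind. The authors aligned 75-cycle single-end reads of poly(A) libraries to hg19 with the iGenomes UCSC annotation using STAR 2.6.1d and deposited raw gene counts per library, not normalised. The series table equals the reverse-strand column of the library tables in every gene. Reads assigned to no gene (37.7% to 41.1% of a library) were left out.

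The 12186 genes above 1 CPM in 3 or more of the 6 libraries were scaled with TMM (factors 0.972 to 1.04) and tested with the quasi-likelihood test of edgeR, with no block on replicate number, in R 4.3.3 (edgeR 4.0.16, limma 3.58.1, DESeq2 1.42.0). Calls were made up to 0.05 after Benjamini-Hochberg adjustment over all genes tested. The standard error is the absolute log2 fold change divided by the square root of F. Single values were tested with the exact permutation test, whose smallest p is 0.1 here. The methods call the replicates biological. Replicates of a group differed beyond counting noise (chi-square per degree of freedom of at least 3.48). This covers counting error only, so it cannot tell biological replicates from separate library preparations.

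The fit was checked on simulated data. Positions, lengths and UTRs come from GENCODE 44 on GRCh37, whereas counting used the UCSC annotation. Named from the pathway list were up to 5 genes called up and up to 5 called down with the largest log2 fold changes, where one group averaged 5 CPM or more, and MTHFD2L, GLDC, CBS, CTH and TK1. From the S-phase and ATF4 lists the 2 largest changes in the more frequent direction were named, with PCNA, ATF4 and ASNS. CCNE1, CLSPN, ALDH1L1 and GNMT were named after their values were seen. PSPHP1, a pseudogene of PSPH, was not analysed here, and some genes of the lists are counted but not reported by name. The alternatives comprised the likelihood ratio test of edgeR (which the study used), DESeq2, size factors of DESeq2, total counts, filterByExpr or no low-count filter, counting without regard to strand, a replicate block and leaving out each library.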

Additional observations from a re-analysis of the deposited data

How the results depend on the processing

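Under the 14 alternatives, 6 of the 10 enzymes remained up-regulated and 2 down-regulated in number each time, and PHGDH, PSAT1, PSPH, SHMT1, MTHFD1, MTHFD2, MTHFD1L and ALDH1L2 were each called in the same direction in all 14. The log2 fold change of ALDH1L2 lay between 1.61 and 1.81, that of PHGDH between -0.69 and -0.56 and that of PSAT1 between -0.34 and -0.23. SHMT2 and TYMS were called in none, with log2 fold changes from -0.10 to 0.0048 and from 0.03 to 0.13. That of SHMT2 was above 0 (0.0048) only without the low-count filter, and the cause was not tested. At this depth and number of libraries, the intervals allow changes between 0.907-fold and 1.07-fold for SHMT2 and between 0.986-fold and 1.17-fold for TYMS. The level of TYMS per kilobase was 39.0 times that of ALDH1L2 in the NC siRNA libraries by annotated exons, 45.8 times by main transcript and 29.3 times by coding length, since the lengths differ. On the gene's own strand only, the E2F motif TTTCCCGC was found in 0 of the 7 promoters. The near-equal numbers of calls up and down over all genes rest on the scaling. With total counts alone, 3950 genes were called up and 4922 down, against 4462 and 4417 with TMM. The median log2 fold change of all genes tested was -0.07 with total counts alone, against 0.0014 with TMM.

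With the replicate number as a block, 8 of the 10 were called, with log2 fold changes from -0.62 (PHGDH) to 1.71 (ALDH1L2), and 8400 of all genes were called against 8879 without it. Deviations from the group mean correlated at -0.29, -0.10 and -0.17 between same-numbered libraries, and at -0.13 to 0.25 between differently numbered ones. These correlations depend on each other, because each group of 3 is centred on its own mean. They cannot decide whether the numbers pair the libraries. Among 25 other genes named, 320 of 344 alternative values kept direction and side of the threshold. TK1, ATF4 and PCNA lost their calls with the block (adjusted p = 0.107, 0.0546 and 0.0985). Without the low-count filter they had log2 fold changes of -0.14, -0.14 and -0.12 and lost them too. TK1 was also not called without NC siRNA replicates 2 or 3 or BNC2 siRNA replicates 2 or 3 (-0.14, -0.19, -0.12 and -0.17), and PCNA was called without NC siRNA replicate 1 alone (-0.23) among the libraries left out.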
